A study of Mus musculus with 24 samples.

Results

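The 50 genes described here encode the machinery that takes a newly made protein into the endoplasmic reticulum (ER) and carries it on to the Golgi apparatus. They were chosen by name for these roles and matched to the gene names or Ensembl identifiers of the deposited table, where they are 50 of 36806 genes. All 50 were found, and all 50 had at least 1 FPKM (fragments per kilobase of transcript, scaled between libraries) in at least 3 of the 24 libraries, a filter that 12871 genes passed. By role they comprised 5 genes of the Sec61 channel and its partners, 4 of the translocon-associated protein (TRAP) complex, 5 of signal peptidase and 7 of the signal recognition particle (SRP) and its receptor. A further 8 encode p24 cargo receptors, 11 the COPII coat, 5 retrieval and lectin receptors and 5 the COPI coat. The name Srprb stood on 2 lines of the table. The line of ENSMUSG00000032553 was used, and a line that the reference names Gm20425, at 3.13 to 15 FPKM, was left out.

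Polyadenylated RNA from whole pancreas of C57BL mice was sequenced in animals with both copies of Nr5a2 (+/+, called WT) and in animals with 1 copy (+/-, called HET). Nr5a2 is a nuclear receptor of acinar cells, which produce and secrete the digestive enzymes and form the bulk of the organ, and is known to act on their enzyme genes. Each genotype had 4 groups of 3 animals, given saline or 7 hourly intraperitoneal injections of caerulein at 50 µg/kg and killed 8, 24 or 48 h after the first injection. Caerulein, a peptide that acts like cholecystokinin, drives acinar secretion to excess and is used to induce mild acute pancreatitis in mice. The sources used here do not give age, sex, the structure of the Nr5a2 allele or when saline animals were killed. Nr5a2 itself stood at 12.6, 9.26 and 10.2 FPKM in the 3 WT saline libraries and at 9.09, 8.01 and 8.79 FPKM in HET saline. Its mean HET over WT difference across the 4 conditions was -0.29 ± 0.09, adjusted p = 0.037 (log2 fold change ± SE, limma with Benjamini-Hochberg adjustment over all genes, as everywhere below), and it passed the threshold of 0.05 in none of the 4 conditions alone.

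Saline and 24 h libraries were prepared with an earlier kit guide with 10 PCR cycles, and 8 h and 48 h libraries with a v2 guide with 8 cycles. Differences of 8 h or 48 h from saline therefore cannot be told apart from the guide, whereas 24 h against saline, 48 h against 8 h and all HET against WT comparisons lay within a guide (1 of the WT saline libraries is named under neither). The FPKM summed to 217205 to 1400108 per library and the depth in reads is unknown. The 8 acinar markers with values in every group summed to 172378 to 246014 FPKM per library in WT saline, 24154 to 42399 at 8 h, 20251 to 23886 by 24 h and finally 20522 to 48654 at 48 h. In HET the same sums were 147369 to 293666, 26646 to 28707, 5222 to 6227 and 215 to 7284 FPKM. Macrophage markers (9 of 9 summed) moved the other way, in WT from 59.3 to 149 FPKM in saline to 219 to 728 at 48 h. In HET they summed to 173 to 397 FPKM in saline, above every WT saline library, and to 668 to 1146 FPKM at 48 h. In whole tissue, fewer cells of a type and less RNA per cell cannot be told apart, and the part of cell composition in the results below was not tested. HET 48 h library 3 stood apart, with 2.83% of its FPKM from digestive enzyme and Reg genes against 12.58% and 20.41% in the other two libraries of its group.

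Digestive enzymes reach the gut through this route, and acinar cells are known for their dense rough ER. SRP binds the signal sequence of a nascent protein and docks at its receptor, the Sec61 channel threads the chain into the ER with the help of TRAP, and signal peptidase removes the signal sequence. COPII coats bud vesicles from the ER, p24 proteins and the lectin pair Lman1 and Mcfd2 sort cargo into them, and COPI coats and KDEL receptors return escaped ER proteins. Genes of this machinery are known targets of the transcription factors Xbp1 and Atf6 in the unfolded protein response, which bind the ER stress elements searched for next.

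Promoter sequence was examined for these elements and for other short cores. RefSeq gave a promoter (250 bases before to 50 after the start, build GRCm38.p6, whereas the submitters' notes name build mm9) for 38 of the 50 genes. The core of the ER stress element, CCACG on either strand, occurred in 25 of the 38 (65.8%), against 35.5% of the promoters of 27025 genes and 52.0% of those of the 9394 tested genes with an entry. The 8-letter unfolded protein response element TGACGTGG, whose reverse complement contains CCACG, so that these searches overlap, occurred in 5 of 38 (13.2%) against 0.7% of all and 1.04% of tested genes. The full ER stress element, CCAAT and CCACG with 9 bases between them, was in none of the 38 (0.1% of all and 0.16% of tested genes). CATATG, a core bound by Bhlha15, was in 2 (5.3%, against 4.5% of all and 2.15% of tested genes). CAGCTG was in 2 (5.3%, against 18.3% and 17.9%), and the Nr5a2 core CAAGGTCA in 0 (against 1.8% and 1.25%). GC content was 59.0% in the members' promoters, 60.5% in those of tested genes and 53.8% in all. These matches are descriptions of letters, not of binding.

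The bases before the start are printed for those of the 6 genes with the smallest adjusted p between genotypes at 48 h that have an entry. CCACG and its reverse complement are in capitals. That of Mcfd2 (chr17:87265948-87266197, minus strand) held 3 matches, that of Tmed3 (chr9:89705044-89705293, minus strand) 1, and that of Sec62 (chr3:30792626-30792875, plus strand) none.
Mcfd2: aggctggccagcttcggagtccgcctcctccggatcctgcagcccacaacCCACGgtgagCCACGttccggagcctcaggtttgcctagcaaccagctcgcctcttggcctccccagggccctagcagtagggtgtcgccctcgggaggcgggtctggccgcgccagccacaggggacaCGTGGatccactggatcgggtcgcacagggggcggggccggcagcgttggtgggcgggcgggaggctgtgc
Tmed3: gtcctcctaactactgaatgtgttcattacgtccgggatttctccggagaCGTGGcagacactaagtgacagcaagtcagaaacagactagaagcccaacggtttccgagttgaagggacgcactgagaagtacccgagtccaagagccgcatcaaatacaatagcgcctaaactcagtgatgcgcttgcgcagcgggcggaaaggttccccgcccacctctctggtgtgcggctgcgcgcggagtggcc
Sec62: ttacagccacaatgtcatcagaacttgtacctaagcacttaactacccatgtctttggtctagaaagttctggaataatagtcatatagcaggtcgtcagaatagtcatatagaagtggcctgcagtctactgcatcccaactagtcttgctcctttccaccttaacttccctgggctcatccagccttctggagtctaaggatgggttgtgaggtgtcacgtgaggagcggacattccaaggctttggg

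Of the 5 genes with the 8-letter element, 3 had it wholly before the start, and the stretch around it is printed with the element or its reverse complement in capitals. They were chosen after the search. The element began 26 bases before the start in Sec24d (chr3:123267444-123267495, plus strand), 30 before in Kdelr3 (chr15:79516352-79516407, plus strand) and 28 before in Copb1 (chr7:114254681-114254734, minus strand). In Copb2 and Sec23a it overlapped or followed the start.
Sec24d: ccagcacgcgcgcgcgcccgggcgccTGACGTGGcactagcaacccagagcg
Kdelr3: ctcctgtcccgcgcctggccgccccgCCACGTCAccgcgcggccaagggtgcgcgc
Copb1: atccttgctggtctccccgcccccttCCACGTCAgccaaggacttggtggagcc
These genes did not share a course: in WT Sec24d stood at 12.3 to 17.5 FPKM in saline, 5.53 to 8.38 FPKM at 8 h and 5.11 to 7 at 24 h (ranges over 3 libraries), Kdelr3 at 12.0 to 21.1, 19.4 to 29.1 and 6.02 to 8.93, and Copb1 at 16.8 to 22.0, 13.2 to 15.9 and 19.5 to 21.1. Sec24d was below its saline libraries from 8 h and Kdelr3 at 24 h, where the enzyme-free scaling described further on gave -0.20 ± 0.25 and -0.17 ± 0.22 (log2 fold change ± SE), neither called.

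In WT saline pancreas the 50 genes summed to 3601 to 4053 FPKM per library and spanned more than 2 orders of magnitude. Ssr4, a TRAP subunit, had the highest level at 524 ± 79.9 FPKM (mean ± SD, n = 3), ahead of Sec11c, a catalytic subunit of signal peptidase, at 361 ± 26.2, and Tmed11, a p24 protein, at 298 ± 46.0. The mean ± SD of Tmed11 overlapped that of Cope, a COPI subunit, at 235 ± 29.1, and lay above that of Mcfd2, the partner of the lectin Lman1, at 218 ± 22.6. Srp9, which helps SRP pause translation, led its complex at 138 ± 16.7 FPKM, and Sec61b, a small channel subunit, stood at 139 ± 1.15. Levels differed widely within a complex: Lman1 was at 52.2 ± 9.75 FPKM beside its partner Mcfd2, and the TRAP subunits Ssr1, Ssr2 and Ssr3 at 62.2 ± 22.2, 90.2 ± 21.0 and 94.3 ± 12.0 beside Ssr4. COPII genes were low, with Sec13, of the outer coat, highest at 37.3 ± 7.14 FPKM and Sec23a, of the inner coat, lowest at 2.48 ± 0.624.

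Most of these genes were lower at 8 h. In WT, 35 of 50 fell and 2 rose against saline, with a median log2 fold change of -0.78 beside 0.05 for all genes tested. Of all genes tested, 22.8% were called lower and 28.2% higher. In HET, 33 fell and 2 rose (median -0.87, beside 24.5% lower and 30.7% higher of all genes). The calls lower in both genotypes numbered 32, which is 91.4% of those in WT and 97.0% of those in HET, and the 2 that rose were Sec24a and Sec24b in both. The same shares over all genes were not computed, so these percentages describe the members alone. When each library was instead scaled to its total without digestive enzyme and Reg genes (the enzyme-free scaling), 30 fell and 2 rose in WT and 28 fell and 3 rose in HET at 8 h. That scaling called 17.5% of all genes lower and 20.9% higher in WT, and 15.9% and 26.9% in HET.

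Tmed11 fell furthest at 8 h, from 262, 350 and 283 FPKM in WT saline to 37.2, 48.3 and 48.1 (-2.72 ± 0.47, adjusted p = 6.8e-05). The smallest adjusted p were those of 3 other p24 and signal peptidase genes. Tmed4, a p24 protein, stood at 25.2, 25.9 and 21.8 FPKM in WT saline and 3.80, 5.16 and 5.15 at 8 h, a log2 fold change of -2.15 ± 0.17, adjusted p = 3.6e-09. Spcs2, an accessory subunit of signal peptidase, went from 91.1, 77.3 and 76.2 to 16.1, 17.7 and 21.5 FPKM (-2.09 ± 0.16, adjusted p = 2.4e-09). Tmed10, which forms complexes with other p24 proteins, went from 85.7, 91.3 and 72.1 to 17.4, 17.7 and 22.7 FPKM (-2.06 ± 0.14, adjusted p = 3.1e-10). In none of the 3 did any 8 h library reach the lowest saline library. HET gave -2.18 ± 0.17, -2.29 ± 0.16 and -2.18 ± 0.14 for the same genes. By role, 4 of 4 TRAP genes, 4 of 5 signal peptidase genes and 7 of 8 p24 genes fell in WT, with the enzyme-free scaling 4, 4 and 6. Fewer fell in the channel (2 of 5, also 2 with that scaling).

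Both genes that rose at 8 h encode cargo-binding subunits of the inner COPII coat. Sec24a stood at 4.24, 4.25 and 3.77 FPKM in WT saline and 8.67, 7.33 and 8.06 at 8 h (0.83 ± 0.19, adjusted p = 0.0011). Sec24b went from 15.4, 10.2 and 8.11 to 24.5, 22.4 and 25 FPKM (1.07 ± 0.19, adjusted p = 7.4e-05). Their paralogue Sec24d moved the opposite way, and Sec24c, the remaining one, stood at 9.26, 8.19 and 8.69 FPKM in saline and 8.39, 8.48 and 8.43 at 8 h, with overlapping groups. In HET at 8 h, Sec24a stood at 10.5, 11.2 and 9.88 FPKM (1.26 ± 0.19) and Sec24b at 24.2, 19.7 and 22.2 (1.08 ± 0.19). These are the 2 members in which every 8 h library, of either genotype, was above every saline library, beside 23.3% of all genes.

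**Figure D1:**
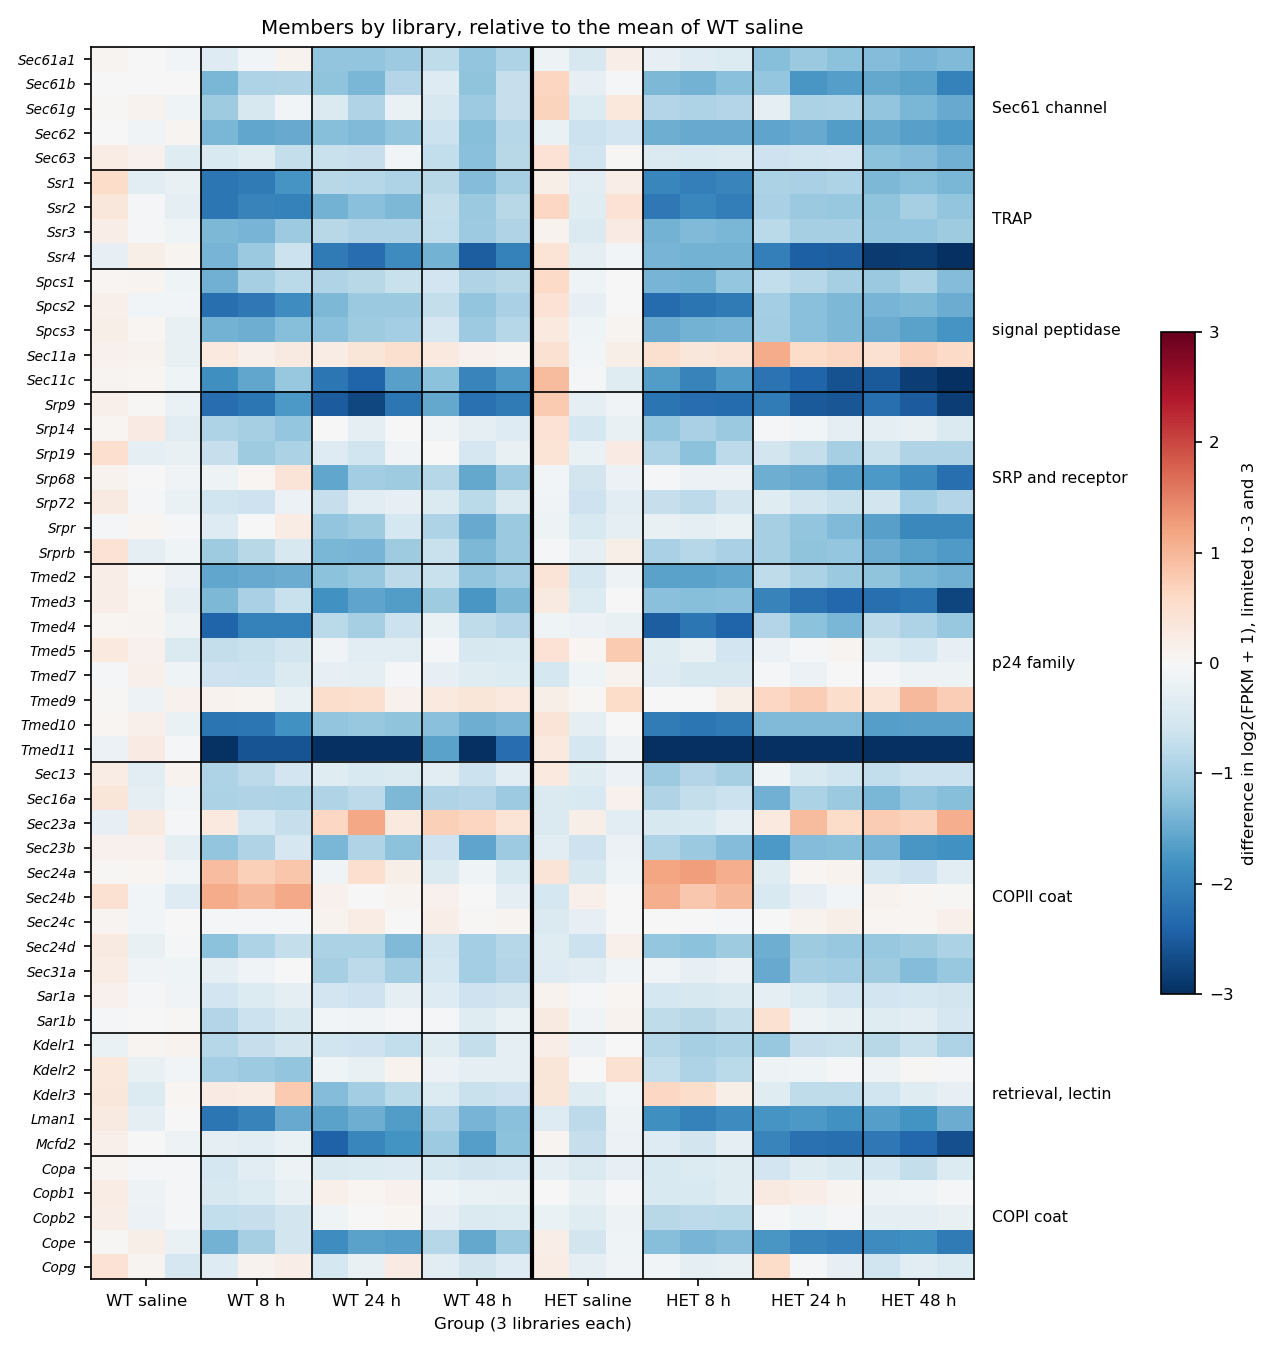
Level of each of the 50 genes (rows, by role) in each of the 24 libraries (columns, 3 per group), as the difference in log2(FPKM + 1) from the mean of the 3 WT saline libraries, on the authors' scaling. Blue (lower) fills most of the 3 later times in both genotypes, while Sec24a and Sec24b are red at 8 h and Sec11a, Tmed9 and Sec23a pale to red at 24 and 48 h. With the enzyme-free scaling 48 of 301 called member results turned sign, 0 of them at 8 h, and with median-ratio scaling 0 of 301 did.

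At 24 h, on the same guide as saline, 31 of 50 fell and 1 rose in WT (median -0.87), beside 18.7% lower and 20.5% higher of all genes tested. In HET 35 fell and 4 rose (median -0.91), beside 19.8% and 23.9%. These directions depend on which scaling is used. Median-ratio scaling divides each library by the median ratio of its genes to their geometric mean over all libraries. With it 32 fell and 1 rose in WT, and 35 fell and 3 rose in HET. With the enzyme-free scaling, which moved the median of all genes by 0.66 in WT and 0.78 in HET, 8 fell and 18 rose in WT and 8 fell and 19 rose in HET. That scaling called 3.64% of all genes lower and 57.5% higher in WT, and 4.9% and 62.6% in HET. Relative to the median of all genes the members' median was -0.92 in WT and -0.97 in HET, and -0.63 and -0.64 with the enzyme-free scaling. The genes named next fell under the authors' and the enzyme-free scaling unless stated.

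Tmed11 fell furthest at 24 h. It stood at 262, 350 and 283 FPKM in WT saline and 5.58, 9.09 and 2.84 at 24 h (-5.55 ± 0.47, adjusted p = 1.2e-07), and in HET at 364, 205 and 265 and 1.23, 1.12 and 1.02 (-7.00 ± 0.47, adjusted p = 4.3e-09). Ssr4, the most abundant member, stood at 435, 590 and 546 FPKM in WT saline and 119, 106 and 140 at 24 h (-2.09 ± 0.24, adjusted p = 2.8e-06). Srp9 went from 153, 141 and 120 to 23.6, 20 and 29.8 FPKM in WT (-2.46 ± 0.25, adjusted p = 8.0e-07) and to 31.3, 23.0 and 22.2 in HET. These 3 were among the highest members in saline, and their 24 h libraries stood below all saline libraries.

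Mcfd2 and Lman1, partner subunits of a cargo receptor for secreted glycoproteins, differed in their course. The 8 h libraries were made with another guide than those of saline and 24 h, so a difference in timing cannot be told apart from it. Mcfd2 stood at 242, 216 and 197 FPKM in WT saline, 178, 171 and 188 at 8 h and 39.8, 55.7 and 62.3 at 24 h (-2.05 ± 0.20, adjusted p = 4.4e-07). Lman1 stood at 62.1, 42.6 and 51.9 FPKM in saline, 10.8, 12.1 and 17.5 at 8 h and 16.3, 18.0 and 15.5 at 24 h (-1.58 ± 0.18, adjusted p = 2.7e-06). Lman1 was thus low at 8 h, when Mcfd2 was not called (-0.28 ± 0.20, adjusted p = 0.25), though the 8 h libraries of Mcfd2 all stood below its saline libraries. Sec62, which helps the channel accept short proteins, stood at 36.6, 34.0 and 38.8 FPKM in WT saline and 14.4, 14.0 and 15.4 at 24 h (-1.26 ± 0.14, adjusted p = 1.6e-06), and with the enzyme-free scaling its difference was -0.33 ± 0.20 and not called. That of Lman1 was -0.65 ± 0.23 (adjusted p = 0.02) with the same scaling.

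Sec23a was the member that rose at 24 h in both genotypes. It encodes an inner coat subunit of COPII and was the lowest member in saline, at 1.93, 3.16 and 2.36 FPKM in WT, against 4.32, 6.69 and 3.25 at 24 h (0.70 ± 0.25, adjusted p = 0.035) and 3.22, 5.63 and 4.07 in HET (0.80 ± 0.25, adjusted p = 0.015). In HET, Sec11a, the other catalytic subunit of signal peptidase, rose from 48.1, 32.7 and 39.3 to 76.3, 51.8 and 54.4 FPKM (0.59 ± 0.15, adjusted p = 0.0041), and Sec24c from 6.18, 7.19 and 8.84 to 8.80, 9.40 and 10.0 (0.32 ± 0.11, adjusted p = 0.022). Copb1, a COPI subunit, rose from 18.6, 15.9 and 18.0 to 22.9, 21.8 and 19.8 FPKM (0.28 ± 0.11, adjusted p = 0.038). All 4 were also higher with the enzyme-free scaling. Whether the 24 h response differed between genotypes was tested as an interaction: 0 of 50 members were called (1 at an unadjusted p under 0.05), beside 1.07% higher and 1.24% lower of all genes.

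**Figure D2:**
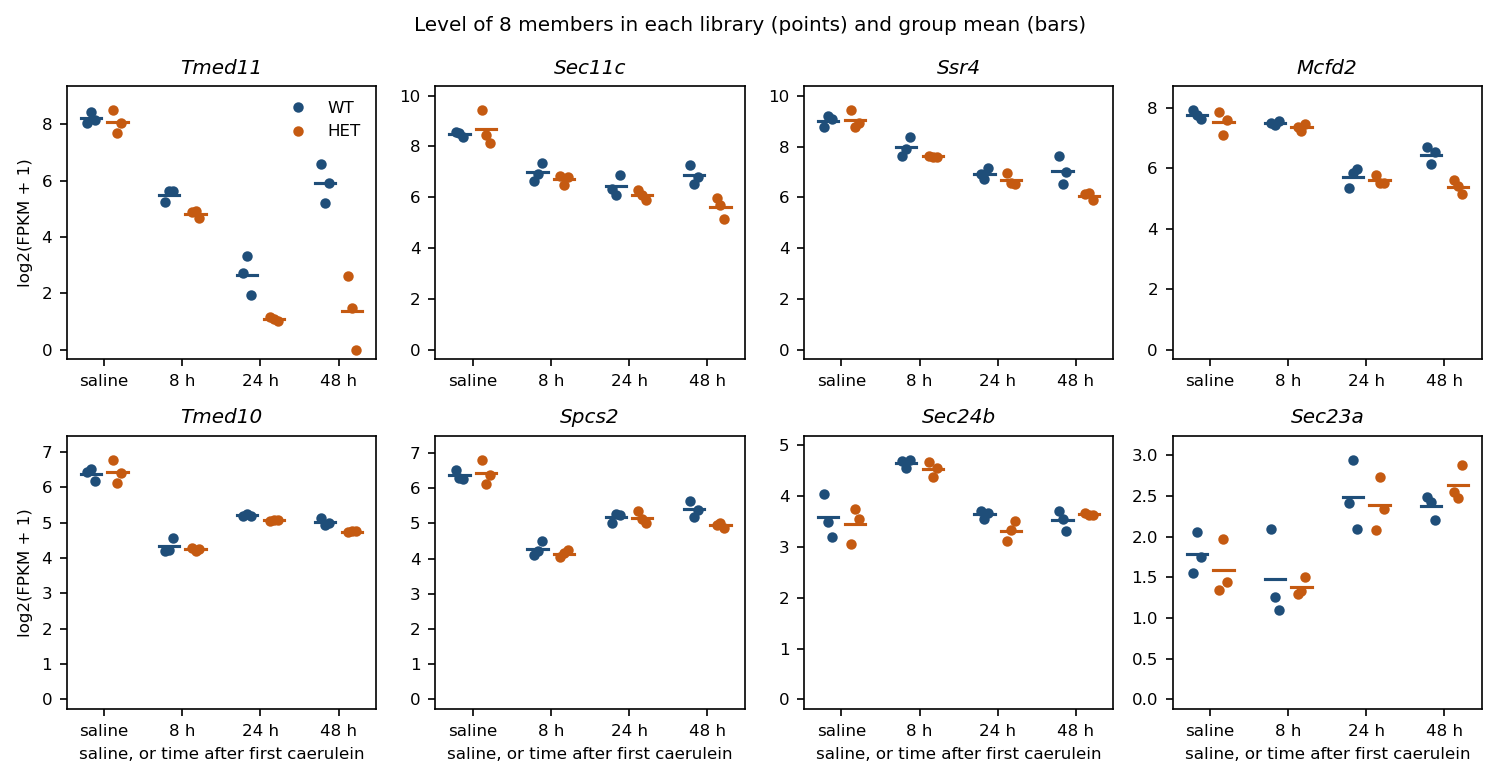
Level of 8 members as log2(FPKM + 1) in each library (points; WT blue, HET orange) with the group mean (bars), in saline and at 8, 24 and 48 h after the first caerulein injection. Tmed11 falls from 205 to 364 FPKM in saline to 1.02 to 1.23 FPKM in HET at 24 h, Tmed10 and Spcs2 are lowest at 8 h, and Sec24b is high only at 8 h. Mcfd2 at 8 h lies below all saline libraries in WT, but above its 24 h libraries in both genotypes.

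At 48 h, 34 members fell and 0 rose against saline in WT (38 at an unadjusted p under 0.05; median -0.79), beside 13.5% lower and 11.8% higher of all genes. In HET 36 fell and 4 rose (median -1.06), beside 20% and 24.2%. Median-ratio scaling gave 35 that fell and 0 that rose in WT, and 38 and 2 in HET. Under the enzyme-free scaling 8 fell and 4 rose in WT, beside 1.57% lower and 28.4% higher of all genes. In HET 12 fell and 17 rose with that scaling, beside 4.63% and 64.2%. In WT Tmed10 stood at 34.1, 29.5 and 30.7 FPKM (-1.37 ± 0.14, adjusted p = 2.7e-06), Ssr4 at 195, 92.1 and 126 (-1.98 ± 0.24, adjusted p = 1.8e-05) and Srp9 at 47.1, 28.1 and 31.0 (-1.96 ± 0.25, adjusted p = 2.7e-05). With the enzyme-free scaling Tmed10 was at -0.74 ± 0.17 (adjusted p = 0.0032). Without HET library 3, 34 fell and 1 rose in HET, beside 16.2% lower and 17.7% higher of all genes. In HET with all libraries the members that rose were Sec11a, Tmed9, Sec23a and Sec24c. Tmed9, a p24 protein, stood at 20.8, 18.7 and 27.3 FPKM in HET saline and 24.8, 37.1 and 31.2 at 48 h (0.46 ± 0.16, adjusted p = 0.023), with groups that overlapped, and the call was lost without HET library 3 (0.45, adjusted p = 0.063). Sec23a stood at 4.87, 4.57 and 6.34 FPKM (1.05 ± 0.25, adjusted p = 0.0023) and did not overlap its saline libraries.

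Further members are given as the range over 3 libraries in WT, on the authors' scaling. In the channel, the pore subunit Sec61a1 stood at 81.2 to 90.8 FPKM in saline, 66.1 to 92.7 at 8 h, 37.3 to 40.3 by 24 h and finally 37.3 to 50.8 at 48 h, with its 24 h and 48 h libraries below all saline libraries. Sec61b, a small subunit of the same channel, stood at 138 to 140, 52.6 to 73.2, 53.4 to 75.1 and 59.1 to 106 FPKM, with every library after caerulein below every saline library. The third subunit Sec61g (62.9 to 74.6 FPKM in saline and 32.1 to 49.5 at 48 h) and the partner Sec63 (29.4 to 45.0 and 15.5 to 22.7) were also lower at 48 h than in saline. In SRP, Srp19, needed to assemble the particle, was lowest at 8 h, at 16 to 20.9 against 28.0 to 48.8 FPKM in saline, while Srprb, the membrane anchor of the receptor, went from 12.3 to 21.2 in saline to 6.87 to 10.8 by 8 h and 5.22 to 6.79 by 24 h. Srp72, the partner of Srp68, stood at 27.1 to 37.7 FPKM in saline and 17.3 to 22.7 at 48 h.

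Of the other TRAP subunits, Ssr1 stood at 47.8 to 87.7 FPKM in saline, 12.6 to 16.7 FPKM at 8 h and 23.7 to 33.2 at 48 h, Ssr2 at 71.6 to 113, 19.1 to 21.4 and 40.1 to 53.8, and Ssr3 at 85.5 to 108, 35.3 to 43.4 and 43.3 to 55.9. The lowest WT library of all 3 was an 8 h library, whereas Ssr4 was at 196 to 330 FPKM at 8 h and 106 to 140 at 24 h. Spcs1, an accessory subunit of signal peptidase, stood at 85.1 to 98.0 FPKM in saline, 33.6 to 52.8 FPKM at 8 h and 49.5 to 62.2 at 48 h.

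Among the p24 proteins Tmed2 stood at 138 to 178 FPKM in saline and 52.5 to 54.5 at 8 h, Tmed5 at 6.88 to 12.0 and 5.47 to 6.27, and Tmed7 at 12.2 to 15 and 8.25 to 9.59. At 24 h Tmed5 was at 7.31 to 8.92 and Tmed7 at 10.7 to 12.9, which overlap their saline libraries. In the COPII coat the scaffold Sec16a stood at 16.7 to 26.8 FPKM in saline and 10.2 to 10.6 at 8 h, while Sec31a, of the outer coat, stood at 29.7 to 38.3, 26.3 to 32.9 and, at 24 h, 15.4 to 18.5. Its partner Sec13 stood at 29.3 to 43.1 in saline and 18.9 to 24.2 at 8 h. Sec13 was thus below its saline libraries at 8 h, when the Sec31a groups overlapped. Kdelr1, the most abundant KDEL receptor, stood at 68.8 to 85.0 FPKM in saline and 43.1 to 53.1 at 8 h, and in the COPI coat Copa stood at 43.4 to 47.4 and 31.0 to 40.2 and Copg at 16.5 to 32.3 and 17.9 to 27.3, where of these 3 genes only the Copg groups overlapped. Of the 20 members in the last 3 paragraphs other than Ssr4, 12 fell at 8 h in WT with the enzyme-free scaling too, but 0 fell and 7 rose at 24 h and 0 were called at 48 h. In WT that scaling called 17.5% of all genes lower at 8 h. It called 3.64% lower and 57.5% higher at 24 h, and 1.57% and 28.4% at 48 h.

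Over all 6 comparisons with saline, 24 of the 50 fell in every one and 7 in none, beside 5.48% and 58.8% of all genes. The 7 were Copg, Sec11a, Sec23a, Sec24a, Sec24b, Sec24c and Tmed9, of which 6 rose in at least 1 and Copg, a COPI subunit, was called in none. Under the enzyme-free scaling 6 fell in every comparison, namely Cope, Sec11c, Srp9, Ssr4, Tmed3 and Tmed11. All 6 were among the members with more than 100 FPKM in every WT saline library.

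Within the v2 guide, 48 h was compared with 8 h. In WT 16 members rose and 9 fell (median 0.17), beside 22.5% higher and 27.4% lower of all genes. In HET 13 rose and 17 fell (median -0.11), beside 23.4% and 28.6%. After enzyme-free scaling 32 rose and 2 fell in WT, and 32 rose and 6 fell in HET. That scaling moved the median of all genes by 0.45 in WT and 0.69 in HET, and called 38.8% of all genes higher and 11.2% lower in WT, and 52% and 9.27% in HET. The members' median was then above that of all genes by 0.32 in WT and 0.17 in HET. Without HET library 3 the numbers in HET were 11 that rose and 15 that fell, beside 19.9% higher and 26% lower of all genes. Of the members low at 8 h, 15 in WT and 10 in HET rose again by 48 h, 9 of them in both: Copb2, Kdelr2, Sar1b, Spcs2, Srp14, Ssr1, Ssr2, Tmed4 and Tmed10. Another 6 that were not called at 8 h fell between 8 and 48 h in both genotypes, namely Kdelr3, Mcfd2, Sec31a, Sec61a1, Srp68 and Srpr. The comparisons of 8 h with saline and of 48 h with 8 h share the 8 h libraries and are not independent. The share of all genes with these patterns was not computed, so the counts describe the members alone.

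Tmed4 had the largest return. It stood at 3.80, 5.16 and 5.15 FPKM in WT at 8 h and 21.1, 13.8 and 12.8 at 48 h (1.54 ± 0.17, adjusted p = 3.9e-07), and in HET at 3.53, 4.63 and 3.76 and 13.6, 12.2 and 10.5 (1.40 ± 0.17, adjusted p = 1.4e-06). Spcs2 rose to 48.9, 35.4 and 40.9 FPKM in WT at 48 h (1.13 ± 0.16, adjusted p = 8.8e-06). Kdelr2, a receptor that returns escaped ER proteins, stood at 11.6, 10.9 and 10.1 FPKM in WT at 8 h and 21.3, 20.1 and 19.8 at 48 h (0.85 ± 0.14, adjusted p = 3.9e-05), and in HET rose by 0.77 ± 0.14. Copb2, of the COPI coat, stood at 16.3, 16.9 and 16.6 FPKM in HET at 8 h and 24.6, 24.9 and 25.7 at 48 h (0.57 ± 0.10, adjusted p = 1.4e-04). In these 4 genes every 48 h library stood above every 8 h library of its genotype.

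Srp68 and Srpr of SRP and its receptor fell after 8 h instead. In WT both were also called lower than saline at 24 h, at 17.5 to 25.4 and 38.8 to 61.6 FPKM (-1.22 ± 0.19 and -0.93 ± 0.18, on the authors' scaling). Srp68, a core SRP protein, stood at 57.3, 53.5 and 50.0 FPKM in WT saline, 48.3, 55.7 and 70.7 at 8 h and 29.2, 17.7 and 24.6 at 48 h (-1.26 ± 0.19, adjusted p = 1.7e-05 for 48 h against 8 h). Srpr, the SRP receptor subunit, stood at 68.8, 88.6 and 105 FPKM at 8 h and 46.8, 30.7 and 40.9 at 48 h (-1.13 ± 0.18, adjusted p = 3.5e-05). Under the enzyme-free scaling Srp68 was at -0.61 ± 0.22 (adjusted p = 0.026) and Srpr at -0.47 ± 0.23 (adjusted p = 0.089). In HET, Srp68 differed by -1.83 ± 0.19 and Mcfd2 by -1.97 ± 0.20 over the same interval, and by -1.69 and -1.84 without HET library 3. The receptor subunit Srprb and core protein Srp72 were already lower at 8 h in WT and were not called from 8 to 48 h there. Sec24a, high at 8 h, fell to 2.74, 3.65 and 2.70 FPKM in WT (-1.17 ± 0.19, adjusted p = 3.8e-05) and to 2.54, 2.30 and 3 in HET (-1.68 ± 0.19, adjusted p = 4.4e-07). Srp14, the partner of Srp9, stood at 17.2, 16.1 and 14.4 FPKM at 8 h and 30.9, 27.1 and 25.4 at 48 h in WT.

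Pairs of alternative subunits changed their balance, measured as a ratio of FPKM within each library, which no scaling between libraries can move. A ratio at 8 h or 48 h against saline or 24 h still cannot be told apart from the guide. Sec11c exceeded Sec11a by 10.0, 9.97 and 11.1 times in the 3 WT saline libraries, by 2.33 to 3.89 times at 8 h, 1.5 to 2.38 by 24 h and finally 2.39 to 3.61 at 48 h. In HET the ratio was 7.07 to 14.4 in saline, 2.03 to 2.40 at 8 h, 1.00 to 1.30 at 24 h and 1.30, 0.890 and 0.651 in the 3 libraries at 48 h. Every caerulein library was thus below every saline library, and the HET libraries were below the WT libraries at 24 h and at 48 h. An exact permutation test of 3 against 3 libraries cannot give a p below 0.1, so no test is given for these ratios.

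The COPII pairs differed from saline at different times, though the 8 h and 48 h libraries also differ from saline in guide. Sec23b over Sec23a was 10.3 to 17.1 in WT saline and 3.88 to 18.2 at 8 h, groups that overlapped, and 2.32 to 3.75 by 24 h and finally 2.14 to 4.13 at 48 h. In HET it was 6.56 to 15.5 in saline and 1.22 to 2.20 at 48 h. Sec24d over Sec24a was 2.89 to 4.13 in WT saline, 0.638 to 1.04 at 8 h and back to 1.82 to 3.38 at 48 h. In HET it was 1.93 to 4.45, 0.502 to 0.640 and 2.35 to 2.77. The Sec23 balance was therefore low at 24 and 48 h and the Sec24 balance lowest at 8 h. Sar1a over Sar1b, the GTPases that start the coat, ranged in WT from 1.82 to 2.33 without caerulein, from 2.39 to 2.56 after 8 h and from 1.41 to 1.73 after 24 h, and in HET from 1.79 to 2.10, 2.49 to 2.66 and 1.17 to 1.70. All 8 h libraries were above all saline libraries and all 24 h libraries below them.

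**Figure D3:**
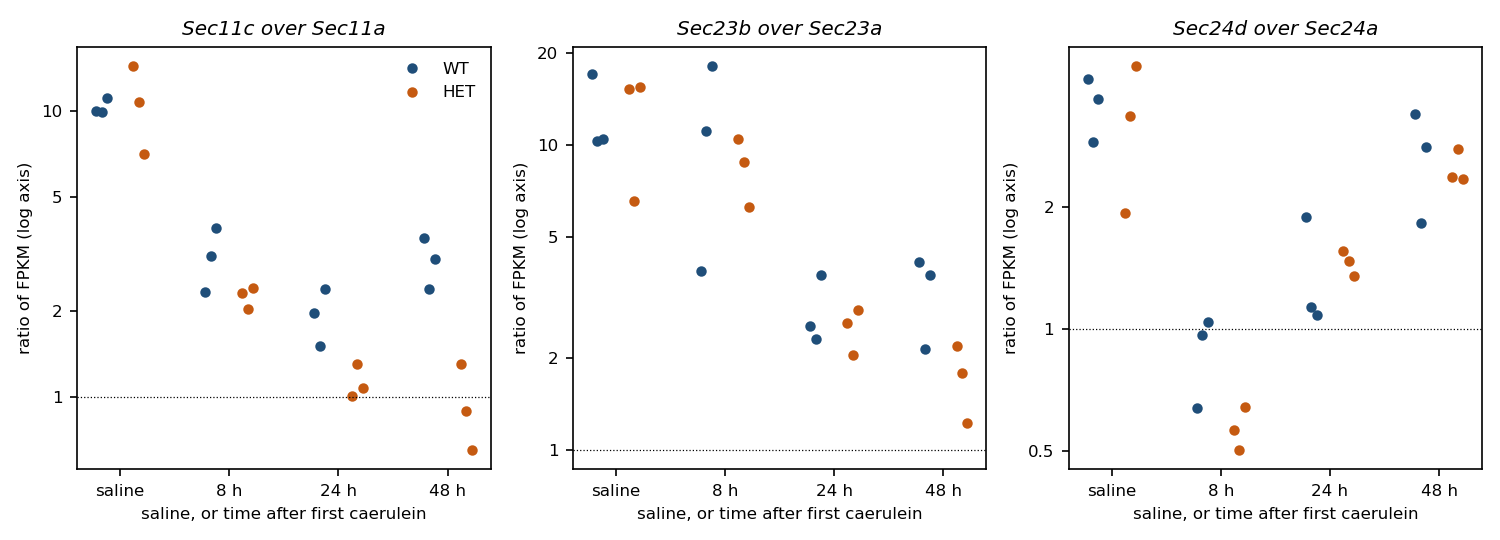
Ratio of FPKM between 2 alternative subunits in each library (points; WT blue, HET orange; log axis, dotted line at 1) in saline and at 8, 24 and 48 h. Sec11c over Sec11a falls from 7.07 to 14.4 in saline to 0.651 to 1.30 in HET at 48 h, Sec23b over Sec23a is low at 24 and 48 h, and Sec24d over Sec24a is lowest at 8 h.

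Few members differed measurably between genotypes before 48 h. In saline 0 of 50 members were called between HET and WT (5 at an unadjusted p under 0.05), beside 1.15% higher and 1.21% lower of all genes. At 8 h 0 of 50 were called (0 at an unadjusted p under 0.05), beside 0.171% and 0.0467%. At 24 h 1 was called, Tmed11, lower in HET, beside 3% lower and 3.5% higher of all genes. Tmed11 stood at 5.58, 9.09 and 2.84 FPKM in WT and 1.23, 1.12 and 1.02 FPKM in HET at 24 h (-1.58 ± 0.47, adjusted p = 0.049). The groups did not overlap, but the call was lost with the enzyme-free scaling (adjusted p = 0.086) and in 5 of the 6 fits without 1 of these libraries.

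At 48 h, 11 of 50 members were lower in HET and 0 higher (23 at an unadjusted p under 0.05), beside 6.37% lower and 5.85% higher of all genes tested. The members' median log2 fold change was -0.33 and that of all genes 0.03. The libraries did not overlap for 24 members lower and 4 higher in HET, beside 16.3% and 17.9% of all genes. The 11 came from 7 of the 8 roles: Sec61b and Sec62 of the channel, Ssr4 of TRAP, Sec11c and Spcs3 of signal peptidase, Srp68 and Srpr of SRP and its receptor, Tmed3 and Tmed11 of the p24 family, Mcfd2 of the lectin receptors and Cope of COPI. None of the 11 COPII genes was called (2 at an unadjusted p under 0.05). Median-ratio scaling gave 11 members lower and 0 higher. With the enzyme-free scaling, which moved the median of all genes by 0.36, 3 were lower (Sec11c, Tmed3 and Tmed11) and 6 higher (Sec11a, Tmed9, Kdelr2, Kdelr3, Copb1 and Copb2). That scaling called 2.58% of all genes lower and 24.4% higher. Relative to the median of all genes the members' median was -0.36, and -0.27 with the enzyme-free scaling.

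Tmed11 had the largest difference. At 48 h it stood at 96.1, 35.6 and 59.5 FPKM in WT and at 5.13, 1.78 and 0.00 in HET (-4.54 ± 0.47, adjusted p = 2.3e-05), where the 0 is in the library that stood apart. Without that library the difference was -3.86 (adjusted p = 3.2e-05). WT Tmed11 was lowest at 24 h, and stood at 35.6 to 96.1 FPKM at 48 h, whereas no HET library exceeded 5.13 FPKM at 48 h. The 24 h and 48 h libraries differ in guide, so a change between them cannot be told apart from it. Within the v2 guide Tmed11 was not called from 8 to 48 h in WT (0.41 ± 0.47, adjusted p = 0.497). In HET it fell over that interval (-3.465 ± 0.466, adjusted p = 4.7e-06). The change from 8 to 48 h differed between genotypes by -3.87 ± 0.66, adjusted p = 0.013, the 1 member called in that interaction, beside 0.568% lower and 0.156% higher of all genes. Over Tmed9, a p24 protein of the same subfamily, Tmed11 was 1.5 to 4.25 times in WT and 0.00 to 0.207 times in HET at 48 h, a ratio within libraries. With the enzyme-free scaling the interaction was -3.84 ± 0.73 and not called (adjusted p = 0.066).

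The other members with the smallest adjusted p at 48 h were each separated between genotypes. Mcfd2 stood at 102, 68.9 and 92.3 FPKM in WT and 48.3, 41.8 and 34.2 in HET (-1.06 ± 0.20, adjusted p = 0.0019). Spcs3, an accessory subunit of signal peptidase, stood at 28.0, 18.3 and 21.9 and 13.8, 12.7 and 11.2 FPKM (-0.79 ± 0.15, adjusted p = 0.0022). Sec62 stood at 22.8, 14.5 and 19.8 and 11.9, 11 and 10.3 FPKM (-0.71 ± 0.14, adjusted p = 0.0027). In all 3 the highest HET library was below the lowest WT library. Tmed3, a p24 protein, stood at 81.5, 50.3 and 66.4 FPKM in WT and 34.9, 36.6 and 24.7 in HET (-1.01 ± 0.21, adjusted p = 0.0042), and Sec11c at 154, 90.2 and 111 and 62.5, 50.3 and 33.9 (-1.27 ± 0.30, adjusted p = 0.0094). WT library 2 was the lowest of its group in each of these 6 genes.

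The other 5 calls were spread over other complexes. Ssr4 stood at 195, 92.1 and 126 FPKM in WT and 69.8, 71.2 and 57.8 in HET (-0.98 ± 0.24), and Sec61b at 106, 59.1 and 84.8 and 46.9, 44.7 and 33.2 (-0.96 ± 0.23). Cope, of the COPI coat, stood at 128, 79.7 and 108 and 62.9, 64.9 and 52.5 FPKM (-0.78 ± 0.21). Srp68 stood at 29.2, 17.7 and 24.6 and 15.6, 13.4 and 10.4 FPKM (-0.80 ± 0.19) and Srpr at 46.8, 30.7 and 40.9 and 28.2, 22.8 and 22.7 (-0.65 ± 0.18). None of these pairs of groups overlapped, yet the calls of these 5 were lost without HET library 3, with differences of -0.89, -0.81, -0.68, -0.66 and -0.60 in the order named (adjusted p = 0.077 to 0.12) and with the enzyme-free scaling, as was that of Sec11c without HET library 3.

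Of the 11 calls, those of Mcfd2, Sec62, Spcs3, Tmed3 and Tmed11 were kept in each of the 6 fits without 1 of the 48 h libraries. Without HET library 3, or without WT library 1, 5 members were called, and without WT library 2, 17. Of all genes, 2.46% were called lower and 1.33% higher without HET library 3, in place of 6.37% and 5.85%. The shares without a WT library are not given here. With only the 6 libraries at 48 h in the fit, 0 were called, with adjusted p of 0.0737 to 0.104 for the 11. The acinar marker sum at 48 h was 20522 to 48654 FPKM in WT and 215 to 7284 in HET, and the macrophage and fibroblast sums 219 to 728 against 668 to 1146 and 429 to 856 against 712 to 1198. Both of the latter sums also differed in saline, macrophage at 59.3 to 149 FPKM in WT against 173 to 397 in HET. Those of fibroblasts in saline were 172 to 238 against 319 to 599.

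**Figure D4:**
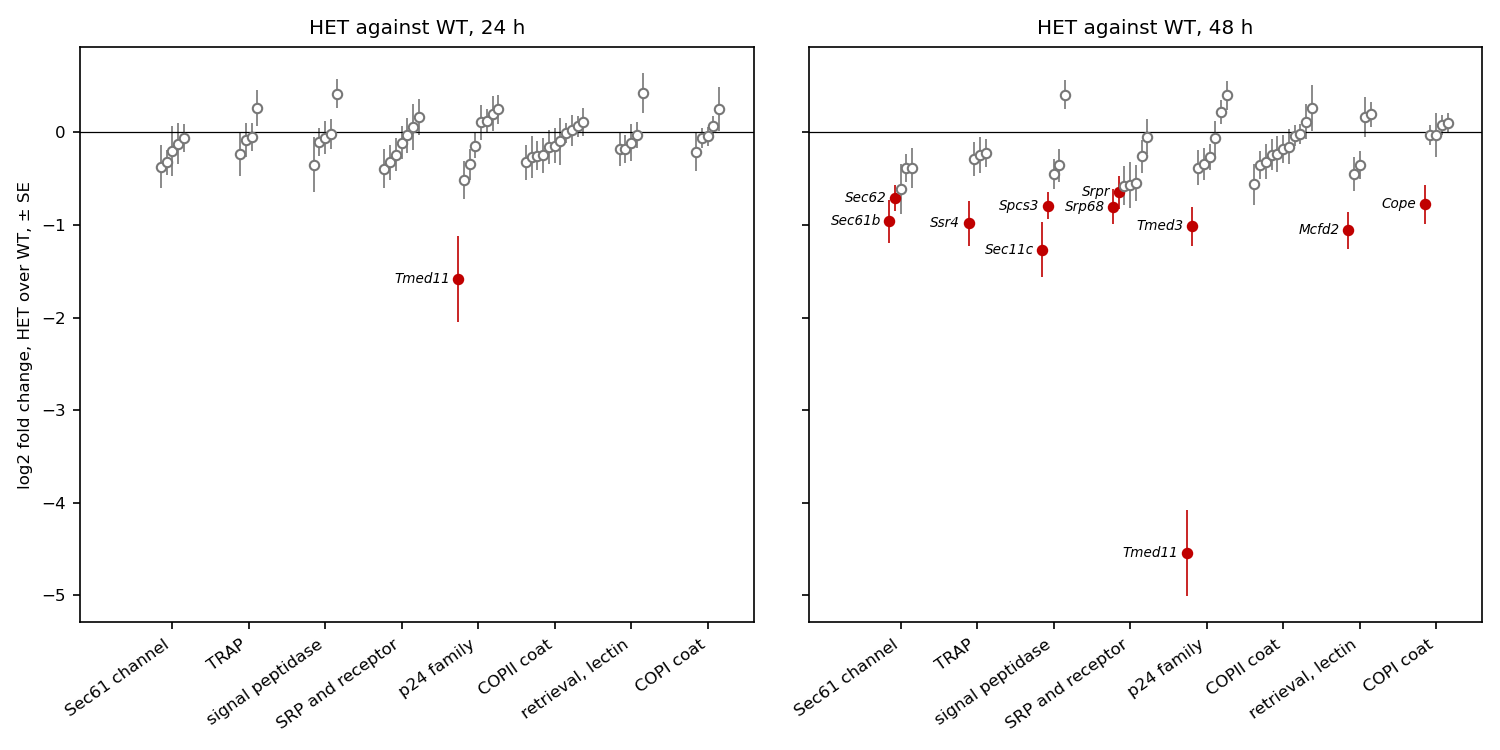
Log2 fold change of HET over WT (± SE) for the 50 members by role at 24 h (left) and 48 h (right), on the authors' scaling; filled red points are past an adjusted p of 0.05. Tmed11 is the 1 call at 24 h and lies at -4.54 at 48 h, where the other 10 calls lie between -1.27 and -0.65. Under the enzyme-free scaling 3 of these 11 stay lower and called, and 6 other members are called higher, beside 2.58% lower and 24.4% higher of all genes.

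The members lower in HET at 48 h were mostly those with high levels in uninjured pancreas. Of the 25 members with the higher WT saline level, 10 were called lower at 48 h (median -0.45), and of the other 25, 1 was (median -0.05). Across the 50 genes Pearson's r between saline level and 48 h difference was -0.592 and Spearman's rho -0.723, and r was -0.715 without Tmed11. Over all 12867 genes tested r was -0.32 and rho -0.236. Over the 7209 genes within the members' range of saline level they were -0.297 and -0.225. The share of all genes called lower by saline level was not computed, so the counts by level describe the members alone. The saline and 48 h libraries come from different animals, but genes are not independent replicates and share these libraries, so the values are a description with no test.

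**Figure D5:**
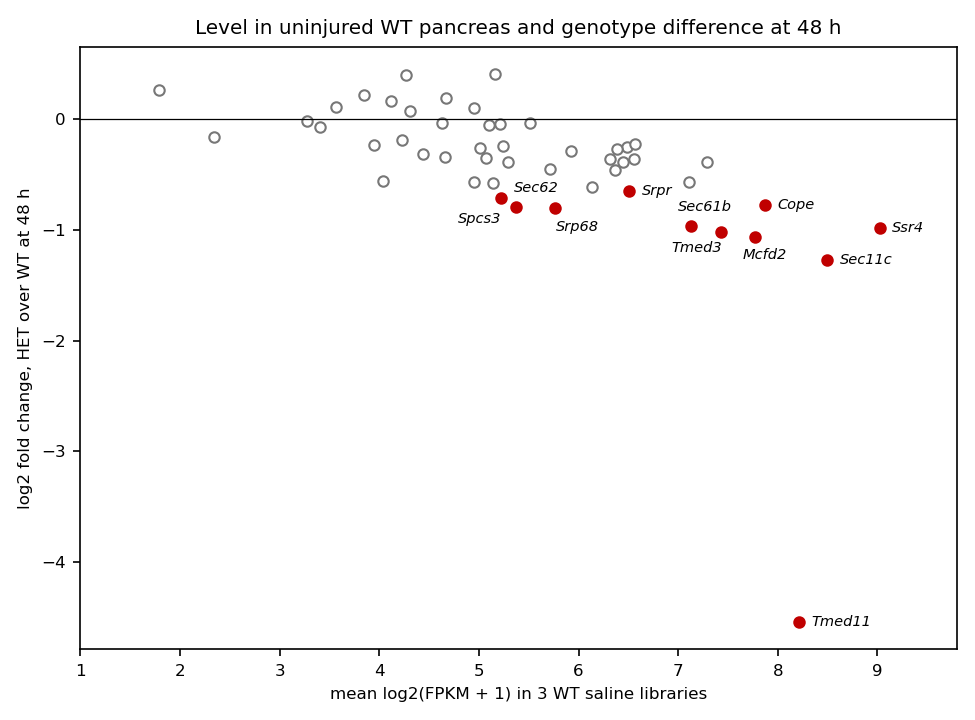
Log2 fold change of HET over WT at 48 h against the mean log2(FPKM + 1) in the 3 WT saline libraries, 1 point per member, with the 11 called members filled and named. All calls but Sec62 lie among the 25 members with the higher saline level, and Tmed11 lies far below the rest; the vertical position of all points depends on the scaling.

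Averaged over the 4 conditions, 14 members were lower and 2 higher in HET, beside 8.4% lower and 10.2% higher of all genes. The lowest adjusted p were those of Tmed11 (-1.73 ± 0.23), Sec62 (-0.38 ± 0.07) and Tmed3 (-0.46 ± 0.10). Without HET 48 h library 3, 8 were lower and 1 higher, beside 7.16% lower and 8.36% higher of all genes. With all libraries the 2 higher were Sec11a (0.29 ± 0.08, adjusted p = 0.011) and Tmed9 (0.24 ± 0.08, adjusted p = 0.036). Tmed9 was not called without HET 48 h library 3 (0.24, adjusted p = 0.059). Sec11a stood at 40.4, 45.0 and 48.7 FPKM in WT and 76.3, 51.8 and 54.4 FPKM in HET at 24 h, and at 42.7, 37.8 and 36.7 and 47.9, 56.5 and 52.1 at 48 h, with no overlap at either time. With the enzyme-free scaling 1 member was lower, Tmed11, and 5 higher, among them Sec11a and Tmed9, beside 3.04% lower and 20.6% higher of all genes. Sec11c was lower on average (-0.43 ± 0.15, adjusted p = 0.05 after rounding), opposite in direction to Sec11a, the other catalytic subunit of signal peptidase. It was not called without HET 48 h library 3 (-0.37, adjusted p = 0.097) or with the enzyme-free scaling. Its difference was 0.18 ± 0.30 in saline and -1.27 ± 0.30 at 48 h.

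A second list held other genes of the same route, of which 53 were tested. At 48 h 9 of them were lower in HET and 1 higher (median -0.17), beside 6.37% and 5.85% of all genes. Without HET library 3, 6 were lower and 0 higher, beside 2.46% and 1.33% of all genes. Under the enzyme-free scaling 4 were lower and 9 higher, beside 2.58% and 24.4%. Bhlha15, a transcription factor of secretory cells also called Mist1, stood at 60.8, 29.8 and 52.0 FPKM in WT and 8.69, 4.58 and 0.263 FPKM in HET at 48 h (-3.51 ± 0.46, adjusted p = 1.7e-04), and at 12.2, 21.9 and 16.3 and 0.396, 0.846 and 0.781 at 24 h (-3.38 ± 0.46, adjusted p = 6.2e-04). Tmed6, a p24 protein, stood at 338, 153 and 229 and 61.2, 34.6 and 3.50 FPKM at 48 h (-3.41 ± 0.60, adjusted p = 0.0013). Like Tmed11 it was lowest in HET library 3, and its other HET libraries were below every WT library. Copz2, a COPI subunit, differed by -1.63 ± 0.24 and Tram1, which helps nascent chains into the channel, by -1.05 ± 0.19. Tusc3, of the N-glycan transferase, was the 1 higher (0.43 ± 0.12). Without HET library 3 the differences were -2.66 for Bhlha15 (adjusted p = 5.9e-05), -2.28 for Tmed6 (adjusted p = 4.7e-04), -1.44 for Copz2 and -0.94 for Tram1, all 4 still called. Tusc3 was not called without it (0.43, adjusted p = 0.1). Under the enzyme-free scaling all 5 were called in the same direction, with differences of -3.22, -2.97, -1.17, -0.59 and 0.88 in the order named.

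In the same list 34 of 53 fell and 1 rose in WT at 8 h, beside 22.8% and 28.2% of all genes, and 31 fell and 5 rose at 24 h, beside 18.7% and 20.5%. Under the enzyme-free scaling 27 fell and 1 rose at 8 h, beside 17.5% and 20.9% of all genes. At 24 h 7 fell and 19 rose with that scaling, beside 3.64% and 57.5%. Xbp1, the unfolded protein response factor, stood at 322, 340 and 291 FPKM in WT saline and 263, 287 and 377 at 8 h, groups that overlapped, 359, 334 and 677 at 24 h and 225, 149 and 182 at 48 h. Creb3l1, a related ER-bound factor, stood at 24.2, 21.3 and 19.1 FPKM in saline and 2.23, 1.98 and 2.42 at 8 h. Every 8 h library of Creb3l1 stood below every saline library.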

How the data were processed

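Polyadenylated RNA of 24 mouse pancreases, 1 library per animal, was sequenced on a Genome Analyzer IIx, per the labels' protocols. The authors deposited FPKM per Ensembl gene. The unit is not in the file header; it follows from Cuffnorm, named in the submitters' processing notes with CASAVA 1.8, Bowtie, Cufflinks 2.0.2 and build mm9, without their order. Annotation release and strand setting: not given in the sources used here. RNA integrity numbers were 6.6 to 9.2, per the labels. Low FPKM values of a library step by a common amount, so that 1 fragment was worth 0.125 (HET 48 h library 3) to 1.972 times (HET saline library 1) its value in WT saline library 1. Depth in reads is unknown, so counting error could not be computed.

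Group means were fitted to log2(FPKM + 1) by limma 3.58.1 (R 4.3.3; trend and robust moderation, 16 residual degrees of freedom) over all genes that reached 1 FPKM in 3 or more libraries. The 15 comparisons were two-sided, each adjusted over its genes by Benjamini-Hochberg at a threshold of 0.05. Fold changes are on the log2(FPKM + 1) scale, which understates those of low genes. A gene at 0 in all libraries of a group and at 100 FPKM or more in each library of another was treated as missing there (22 genes, 0 members). Earlier results of these data were known when members, lists, alternatives and the naming rule were chosen. That rule gave library values for the members with the smallest adjusted p per direction, up to 6 in the 24 h comparisons and the 48 h genotype comparison and up to 3 elsewhere, and for the highest member of each role. Alternatives were a pseudocount of 0.1, no filter, zeros kept, median-ratio scaling, scaling to the total without 33 digestive enzyme and Reg genes, plain moderation, the compared groups alone and each library left out. Libraries were numbered in accession order, and those of a group correlated at r = 0.8795 to 0.949. Python 3.11.15 with pandas 2.3.3, numpy 2.4.6 and matplotlib 3.10.9 served for tables and figures. The fit was tested on simulated data.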

Additional observations from a re-analysis of the deposited data

Results flagged for a closer look

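The change of Tmed11 from 8 to 48 h differed between HET and WT by -3.87 ± 0.66 (log2, adjusted p = 0.013, limma interaction). It was picked out because the effect of the same interval differed between the genotypes, and of the 50 members no other passed the test in either interaction.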

How the results depend on the processing

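Of 70 member results named with a fold change, 70 kept their direction under every alternative run. Among the 68 past the threshold, 53 stayed past it without any 1 library, 42 under every other alternative, and 16 lost it with the scaling to the total without digestive enzyme and Reg genes. That scaling turned 48 of all 301 called member results and median-ratio scaling 0. With it the number of members called was 12 for WT 48 h against saline in place of 34, 6 for the mean genotype difference in place of 16, and 0 for the genotype difference at 24 h and for the interaction of 48 h with 8 h. The 24 h genotype difference also gave 0 with a pseudocount of 0.1, without the filter, with median-ratio scaling, with plain moderation and with the compared groups alone. The interaction gave 0 with a pseudocount of 0.1 and with the compared groups alone, as did the 48 h genotype difference with the latter. Without the filter the mean genotype difference gave 8. The cause of these changes was not tested.

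Leaving out 1 library gave 5 (without WT 48 h library 1 or HET 48 h library 3) to 17 (without WT 48 h library 2) members called for the genotype difference at 48 h, 0 to 1 at 24 h, and 0 to 1 in saline, where the call came without HET saline library 1. The mean difference gave 8 to 20, with 8 to 10 without WT 8 h library 3, WT 48 h library 1, HET saline library 2, HET 8 h library 3, HET 24 h library 2 or HET 48 h library 2 or 3. The interaction of 48 h with 8 h gave 1 to 4, the 4 without WT 48 h library 2. Shares of all genes are given above only for the fits without HET 48 h library 3, so the other counts describe the members alone. No paired analysis was possible because the labels give no replicate numbers that tie libraries of different groups together. Depth is unknown, so no limit of detection can be given. Treating the 0 of Tmed11 in HET 48 h library 3 as missing, chosen after seeing the data, changed no count of members called.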
